A study of Mus musculus with 9 samples.

Results

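The genes described here are those of homologous recombination and of the Fanconi anaemia pathway, with their checkpoint kinases and a few neighbours in mismatch repair and damage tolerance. They were chosen by gene symbol from a list of 34, and 33 were measured among the 30654 values that each array gave (Xrcc2 was not analysed here). Homologous recombination repairs a broken chromosome by copying the sister chromatid. BRCA1 with BARD1, PALB2 and BRCA2 prepare resected DNA ends for strand exchange, and motor proteins help the end invade the strand that is copied. The Fanconi core complex is a ubiquitin ligase that marks the FANCD2-FANCI clamp where the strands of DNA are cross-linked, and the repair then passes to nucleases and recombination. Most of these genes are transcribed mainly in dividing cells, and in the postnatal cerebellum the dividing population is chiefly the granule neuron progenitors of the external layer.

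RNA came from cerebella of SmoA1 mice, a medulloblastoma strain, at postnatal day 20, with 5 arrays labelled Pycard wild-type and 4 labelled Pycard knockout. SmoA1 animals carry an activated form of the Hedgehog transducer Smoothened, in the line generally known by that name under the Neurod2 promoter, and both genotypes carry it. Pycard encodes ASC, the adaptor that couples inflammasome sensors to caspase-1, and the series asks how its loss bears on proliferation and tumour incidence. Each array set 1 sample in Cy5 against the same Cy3 pool, made from cerebella of wild-type mice at postnatal day 16, so every value is a log2 ratio of a SmoA1 sample over that pool and a value of 1 is a ratio of 2. The pool differs from the samples in age and in SmoA1, and no array has the dyes exchanged, so age, SmoA1, the pool and a dye effect cannot be told apart in any comparison with it. In whole tissue, fewer cells of a type and less RNA per cell cannot be told apart either. The labels do not tie arrays to individual animals. The p-values therefore describe the variation among these samples, part or all of which may be technical. The table holds ratios to a cerebellar pool and no signal intensity, so the labelled tissue could not be checked from marker levels.

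Pycard followed the labels, with wild-type log2 ratios of 0.90, 1.17, 0.72, 1.28 and 1.32 and knockout log2 ratios of -2.83, -2.43, -1.48 and -2.83. The difference was -3.47 (SE 0.292, limma adjusted p = 0.0131). The feature SD of an array lay between 0.552 (knockout 1) and 1.12 (wild-type 4), from 1.07% to 7.35% of its features stood at exactly 0, and correlations between arrays ran from 0.198 to 0.704. Knockout 3, the knockout array with the highest Pycard value, was also the knockout array on which the mean of the repair genes was highest. After quantile or scale normalisation between arrays that mean was highest on knockout 2.

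In wild-type SmoA1 cerebellum the repair genes were mostly above the pool. Of the 33 genes, 24 were higher than the pool in the limma test (adjusted p under 0.05 over all 30654 values) and 1, Fancm, was lower, where 12.9% of all values were higher and 12.1% lower. With a mean of at least 1 also required, 17 of the 33 were higher, against 3.73% of all values. The median wild-type log2 ratio was 1.08 over the repair genes and 0.0078 over all values. The list was drawn up with earlier results of these data known, so these shares describe the genes and are no independent evidence about the pathway. In knockout cerebellum 13 of the 33 were higher than the pool and 0 were lower, against 4.28% of all values that were higher. Of these, 5 had a mean of at least 1, against 1.58% of all values, and the median log2 ratio was 0.54. The knockout count depended on single arrays, since it was 2 without knockout 2, 4 without knockout 3, 6 without knockout 4 and 11 without knockout 1, and it was 22 with array weights and 5 with a trended robust prior. Both genotypes were set against the same pool, and so the counts share it. On all 9 arrays 19 of the genes were above 0, on all 5 wild-type arrays 25, and on all 4 knockout arrays 20.

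**Figure D1:**
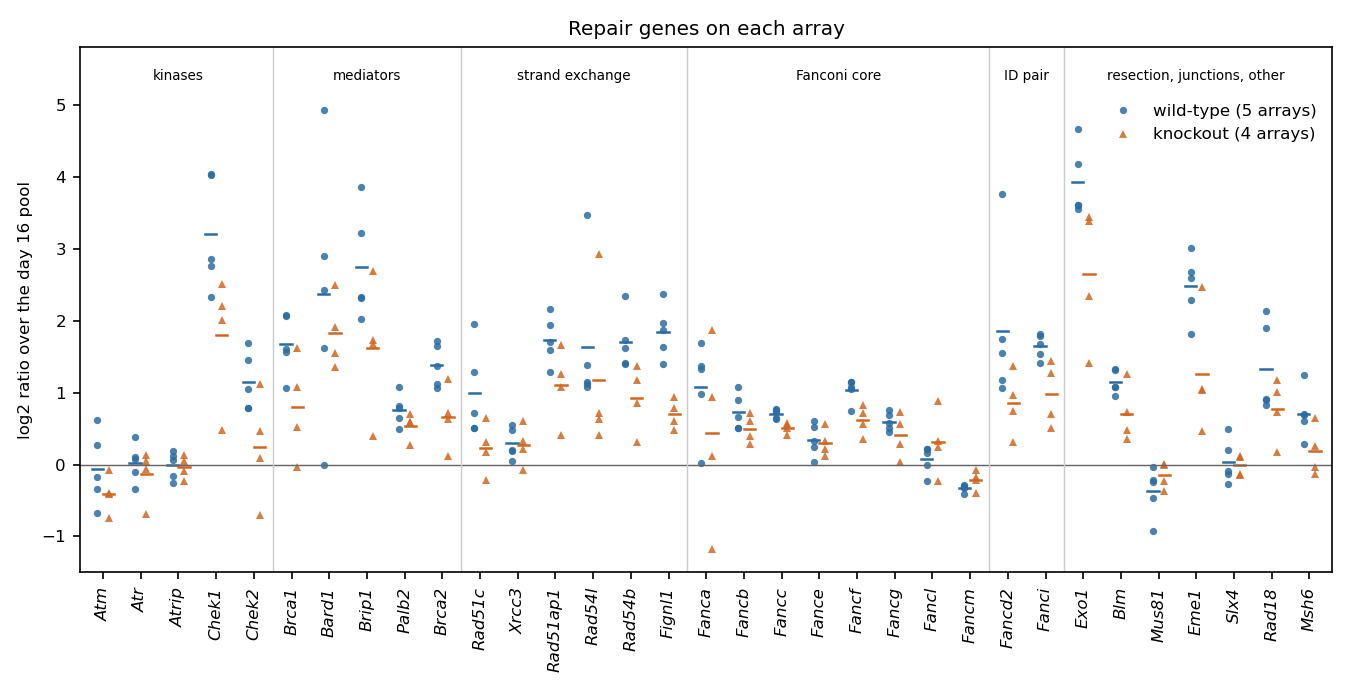
Log2 ratio over the day 16 pool (vertical axis) of the 33 measured repair genes (horizontal axis), grouped by role; circles are the 5 wild-type arrays, triangles the 4 knockout arrays, and short lines the group means. Exo1, Chek1, Brip1 and Eme1 lie highest, Atm, Atr, Atrip and Slx4 lie around 0, and the knockout mean is the lower one for 30 of the 33 genes.

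Between the genotypes no repair gene passed the test. Knockout means were lower than wild-type means for 30 of the 33 and higher for Fancl, Fancm and Mus81, and 0 of the 33 were called by limma (smallest adjusted p = 0.917), where 0.0163% of all values were called in either direction. That share is 5 of 30654 values, which became 0 with the replicate number as a block and 1 to 6 when an array was left out. Without adjustment, 15 of the 33 had p under 0.05 in limma, all with the lower mean in knockout, against 3.31% of all values, and 10 had it with the replicate number as a block. The median difference over the repair genes was -0.52 on the log2 scale, from -1.40 for Chek1 to 0.23 for Fancl, and it was -0.40 after quantile and -0.30 after scale normalisation between arrays. Scale normalisation brought the differences of Chek1, Exo1, Brip1 and Rad54b to -0.84, -0.57, -0.65 and -0.51, and those of Rad51ap1, Fanci and Fancf to -0.33, -0.39 and -0.22. Without knockout 1 the differences of Brip1, Chek2 and Rad51ap1 were -0.72, -0.59 and -0.41. Over all values the median difference was 0.0079 and 47.8% were lower in knockout. The 9 arrays did not overlap between genotypes for Rad54b, Fignl1, Fancc and Exo1, all lower in knockout, against 0.946% of all values that separated this way.

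**Figure D2:**
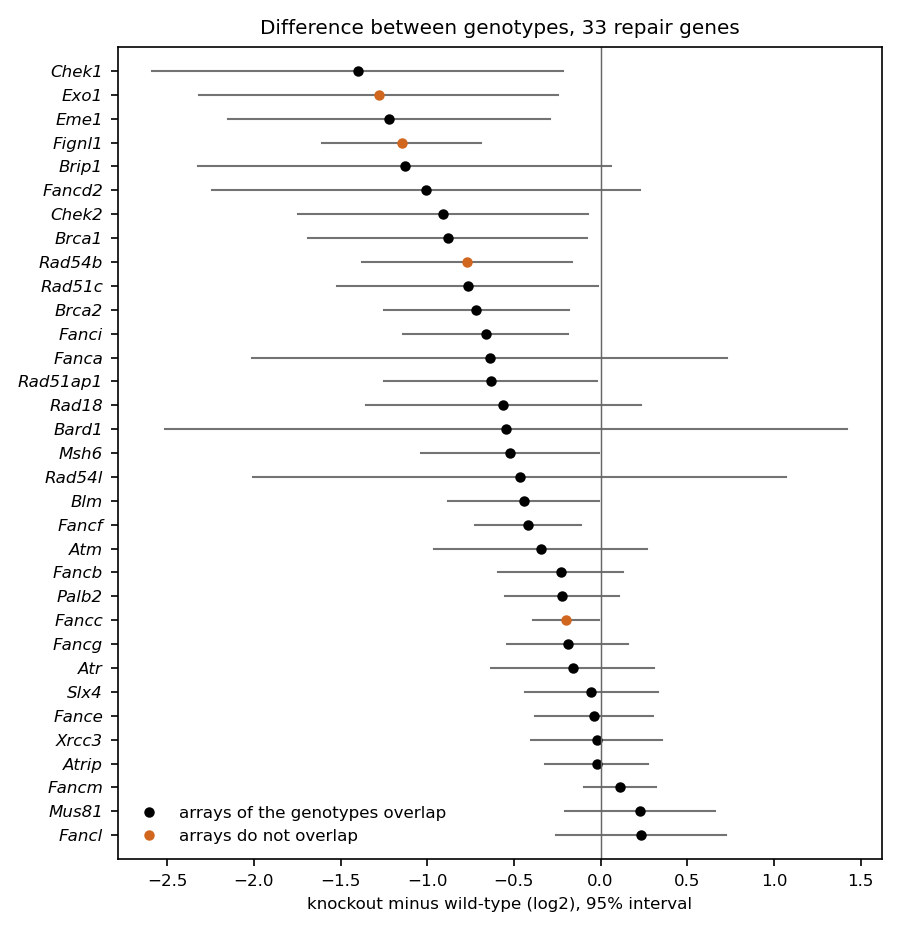
Difference between the genotypes (horizontal axis, knockout minus wild-type log2 ratio) for each of the 33 repair genes, with its 95% interval as a line; filled orange points mark genes whose 5 wild-type and 4 knockout arrays do not overlap. The differences run from -1.40 for Chek1 to 0.23 for Fancl, and the interval of Fignl1, -1.61 to -0.69, lies farthest from 0.

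The difference was uneven over the arrays. The mean over the 33 genes was 0.95, 1.01, 1.03, 1.45 and 1.38 on the wild-type arrays and 0.28, 0.76, 1.04 and 0.51 on the knockout arrays. Knockout 3 therefore lay inside the wild-type range, between wild-type 3 and wild-type 5, and the other knockout arrays below all wild-type arrays. This order changed with normalisation between arrays. After quantile normalisation the mean on knockout 2 (1.03) was above wild-type 3 (0.70). After scale normalisation it (1.02) was above wild-type 3 (0.86) and wild-type 4 (0.86). Knockout 1 and knockout 4 stayed below all wild-type arrays in both settings. Gene by gene and without this normalisation, knockout 1 and knockout 4 were each below all wild-type arrays for 22 of the 33 genes and knockout 2 for 17. Knockout 3 was below all of them for 7, inside their range for 22 and above it for 4. Knockout 1 held the lowest of the 9 values for 16 genes and knockout 4 for 9, while wild-type 4 held the highest for 13 and wild-type 5 for 9. Set against the wild-type array of the same replicate number, the knockout array was lower for 27 genes in number 1, 23 in number 2, 19 in number 3 and 29 in number 4, with median differences of -0.66, -0.21, -0.041 and -0.96. The knockout array was the lower one under all 4 numbers for 15 genes. The matching counts over all values were not computed, so these counts by array and by number do not set the repair genes apart from other genes. The 6 arrays titled with a letter, 3 of each genotype, gave a lower knockout mean for 24 genes and a median difference of -0.25. The 3 arrays titled with a number, wild-type 4, wild-type 5 and knockout 4, gave a lower knockout mean for 30 genes and a median difference of -0.98. With the title style as a block, 0 of the 33 genes were called, 29 had the lower mean in knockout, and the median difference was -0.46. On the number-titled arrays 6.52% to 7.35% of features stood at exactly 0, against 1.07% to 3.49% on the letter-titled ones. Knockout 4 correlated with wild-type 4 and 5 at 0.506 and 0.503, and with the letter-titled arrays of either genotype at 0.283 to 0.363. What the title style stands for was not given in the sources used here, and why the styles differ was not tested.

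Since most of these genes were above the pool together, their promoters were read for motifs of cell cycle transcription. RefSeq promoter windows (mouse build GRCm38.p6) were matched for 30 of the 33 genes, and the 250 bases before the annotated start were searched on both strands for E2F motifs, spelled either TTCCCGC or with a changed middle as TTCGCGC, otherwise as TTGCCGC and finally as TTGGCGC. The other motifs searched were the CCAAT box and the cell cycle homology region TTTGAA. E2F factors activate genes of DNA replication, CCAAT is the site of the factor NF-Y, and TTTGAA is bound by the DREAM complex in genes of late cell cycle. An E2F motif was present in 9 of the 30 windows (30%) and in 10.9% of the 15306 windows of all measured genes. CCAAT was present in 17 of 30 (56.7%) against 36% of all windows, and TTTGAA in 1 of 30 (3.33%), that of Bard1, against 13.5%. Among the 15 genes with a wild-type mean of at least 1, 6 held an E2F motif, and among the 15 with a lower mean, 3 did. The genes without a window, Exo1, Fancd2 and Rad54b, all had a wild-type mean of at least 1 and are missing from the first group. An E2F match overlapped a match of another motif in 1 window. A match is only a run of these letters, and a window without them says nothing about the factors. Shown here are the windows of Brca2 and Fignl1, with an E2F motif, of Brip1, with 3 CCAAT boxes on the opposite strand, and of Chek1, which has the largest difference between the genotypes and none of the motifs. They are written 5′ to 3′ on the strand of the gene, and capitals mark the motif or its reverse complement.
Brca2, chr5:150522371-150522620, plus strand: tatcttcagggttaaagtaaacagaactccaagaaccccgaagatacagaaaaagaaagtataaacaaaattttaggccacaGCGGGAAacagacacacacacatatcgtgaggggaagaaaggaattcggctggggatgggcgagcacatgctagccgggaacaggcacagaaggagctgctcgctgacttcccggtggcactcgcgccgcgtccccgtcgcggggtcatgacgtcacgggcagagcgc
Fignl1, chr11:11808963-11809212, minus strand: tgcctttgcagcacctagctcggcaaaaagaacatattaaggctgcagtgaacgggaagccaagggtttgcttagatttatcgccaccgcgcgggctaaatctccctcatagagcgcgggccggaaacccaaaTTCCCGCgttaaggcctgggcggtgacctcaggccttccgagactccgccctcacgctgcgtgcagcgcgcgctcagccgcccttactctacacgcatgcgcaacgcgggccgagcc
Brip1, chr11:86201194-86201443, minus strand: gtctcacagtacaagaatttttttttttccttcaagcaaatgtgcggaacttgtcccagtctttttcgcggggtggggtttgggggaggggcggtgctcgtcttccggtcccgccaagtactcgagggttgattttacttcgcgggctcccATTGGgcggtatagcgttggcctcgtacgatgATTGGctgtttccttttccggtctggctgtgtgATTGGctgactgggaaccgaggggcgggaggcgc
Chek1, chr9:36726659-36726908, minus strand: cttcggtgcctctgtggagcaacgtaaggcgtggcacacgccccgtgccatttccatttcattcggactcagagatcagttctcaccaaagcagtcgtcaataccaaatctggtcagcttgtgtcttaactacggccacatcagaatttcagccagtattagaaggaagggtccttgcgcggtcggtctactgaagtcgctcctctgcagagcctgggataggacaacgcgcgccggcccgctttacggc

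Among the kinases, the checkpoint effectors were above the pool and the gene averages of the apical sensors were not. Chek1, the effector kinase of ATR that restrains mitosis when forks stall, had wild-type log2 ratios of 2.32, 2.76, 2.86, 4.03 and 4.04 and knockout log2 ratios of 0.47, 2.21, 2.51 and 2.01. Wild-type 4 and 5 were the highest, knockout 1 was the lowest, and only knockout 3 overlapped the wild-type arrays. The Chek1 wild-type mean of 3.20 ± 0.79 (SD, n = 5) passed against the pool (limma adjusted p = 0.000506), as did the knockout mean of 1.80 ± 0.91 (SD, n = 4; limma adjusted p = 0.0283). The Chek1 difference was -1.40 (SE 0.519, 95% interval -2.59 to -0.21). Chek2, the effector kinase of ATM, had 0.79, 1.05, 0.78, 1.46 and 1.69 in wild-type and -0.71, 0.46, 1.13 and 0.09 in knockout. Knockout 3 was above wild-type 1, 2 and 3, and the other knockout arrays were below all wild-type arrays. The Chek2 wild-type mean passed against the pool (limma adjusted p = 0.00994), and the difference was -0.91 (SE 0.366). Atm, the kinase called to double-strand breaks, had log2 ratios of -0.67, -0.34, -0.18, 0.27 and 0.61 in wild-type and -0.75, -0.39, -0.41 and -0.07 in knockout. The Atm groups overlapped around 0, and so did those of Atr, the kinase of stalled forks (-0.34, 0.10, -0.10, 0.38 and 0.07 in wild-type, 0.05, 0.14, -0.06 and -0.68 in knockout). Atrip, the partner of ATR, lay between -0.26 and 0.19 on all 9 arrays. The wild-type means of Atm, Atr and Atrip against the pool were -0.06, 0.02 and -0.0082, and none passed. Atm rests on 11 features, and its 10 features with a RefSeq accession had wild-type means between -0.25 and 0.0012. The remaining Atm feature, 23805, had a wild-type mean of 0.41 and passed singly (limma adjusted p = 0.00895). Atr rests on 6 features, none with a RefSeq mRNA accession, with wild-type means from -0.64 to 0.32. The highest of them, 39036, passed singly (limma adjusted p = 0.032).

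All 5 genes of the BRCA1, PALB2 and BRCA2 group were above the pool in wild-type. Brip1, a helicase that binds BRCA1 and is also known as FANCJ, had log2 ratios of 2.03, 2.33, 2.31, 3.85 and 3.22 in wild-type and 0.39, 1.67, 2.69 and 1.73 in knockout. Knockout 3 was above wild-type 1, 2 and 3, and knockout 1 was far below all others. The Brip1 means of 2.75 ± 0.76 (SD, n = 5) and 1.62 ± 0.94 (SD, n = 4) both passed against the pool (limma adjusted p = 0.000974 and 0.0418), and the difference was -1.13 (SE 0.521). Brca1, which forms a ubiquitin ligase with BARD1 and promotes resection, had 1.06, 1.60, 1.57, 2.06 and 2.08 in wild-type and -0.04, 1.08, 1.61 and 0.52 in knockout. Knockout 2 and 3 overlapped the wild-type arrays, and knockout 1 was at the level of the pool. The Brca1 wild-type mean of 1.67 ± 0.42 (SD, n = 5) passed (limma adjusted p = 0.00152), and the difference was -0.88 (SE 0.352). Brca2, a mediator of strand exchange, had 1.37, 1.06, 1.11, 1.64 and 1.71 in wild-type and 0.12, 0.71, 1.19 and 0.64 in knockout. Of the knockout arrays, knockout 3 alone reached the wild-type range for Brca2. The Brca2 wild-type mean was 1.38 ± 0.30 (SD, n = 5; limma adjusted p = 0.000591), and the difference was -0.72 (SE 0.234). Palb2, the bridge between BRCA1 and BRCA2, had 0.78, 0.64, 0.49, 0.81 and 1.08 in wild-type and 0.27, 0.58, 0.60 and 0.70 in knockout. The Palb2 groups overlapped, and its means passed against the pool in wild-type and in knockout (limma adjusted p = 0.00096 and 0.0223). Its 2 features, 16112 and 17219, differed between the genotypes in opposite directions, by -0.58 and 0.13. Taken singly, these features passed in wild-type with limma adjusted p = 0.0302 and 0.0109, so the smaller p belongs to their average. Bard1 varied more than any of these, with 2.89, 2.42, 0, 1.62 and 4.93 in wild-type and 1.35, 2.50, 1.54 and 1.92 in knockout. Its single feature stood at exactly 0 on wild-type 3, and the genotypes overlapped. The Bard1 wild-type mean of 2.37 ± 1.80 (SD, n = 5) passed (limma adjusted p = 0.0179), but not without wild-type 1, where it was 2.24, or without wild-type 2, where it was 2.36.

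Of the genes of strand exchange, 5 of 6 were above the pool in wild-type. Fignl1, an ATPase of homologous recombination, had gene averages of 1.63, 1.40, 1.86, 2.37 and 1.96 in wild-type and 0.48, 0.94, 0.78 and 0.60 in knockout. The genotypes were apart, with the highest knockout value below the lowest wild-type value. The Fignl1 difference of -1.15 (SE 0.200) had the smallest unadjusted p of the 33 genes, 0.000362, and a limma adjusted p of 0.917. This separation rested on 1 of its 3 features. Rad54b, a motor protein of strand exchange, had 1.61, 1.40, 1.41, 1.73 and 2.34 in wild-type and 0.32, 1.17, 1.37 and 0.85 in knockout. Here too the genotypes did not overlap, although knockout 3 lay just under wild-type 2 and 3. None of the 3 Rad54b features kept the genotypes apart alone, only their average did. The Rad54b means of 1.70 ± 0.38 (SD, n = 5) and 0.93 ± 0.46 (SD, n = 4) passed against the pool (limma adjusted p = 0.000445 and 0.0278), and the difference was -0.77 (SE 0.266). Rad51ap1, a protein that stimulates strand invasion, had 1.29, 1.58, 1.70, 2.16 and 1.93 in wild-type and 0.41, 1.25, 1.66 and 1.07 in knockout. Knockout 3 was inside the wild-type range and the other knockout arrays were below it. The Rad51ap1 means passed in both genotypes (limma adjusted p = 0.000432 and 0.0165), and the difference was -0.63 (SE 0.269). Rad51c, a component of complexes that assist strand exchange, had 0.51, 0.51, 0.72, 1.96 and 1.29 in wild-type and -0.21, 0.31, 0.18 and 0.64 in knockout. Knockout 4 was above wild-type 1 and 2, and the other knockout arrays were below all wild-type arrays. The Rad51c wild-type mean passed (limma adjusted p = 0.012), and the difference was -0.77 (SE 0.330). Rad54l, the main RAD54 motor protein, had 1.38, 1.15, 3.47, 1.11 and 1.08 in wild-type and 0.72, 0.64, 2.92 and 0.41 in knockout. The arrays numbered 3 stood far above the rest in both genotypes, and the other knockout arrays were below all wild-type arrays. The Rad54l wild-type mean of 1.64 ± 1.03 (SD, n = 5) passed (limma adjusted p = 0.0296), but not without wild-type 1, 2, 3 or 5, where it was 1.70, 1.76, 1.18 and 1.78. Xrcc3, the partner of Rad51c, lay between -0.07 and 0.61 on all 9 arrays, with overlapping genotypes and no call against the pool.

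The core complex had a median wild-type log2 ratio of 0.65, below the medians of the BRCA1, PALB2 and BRCA2 group (1.67), the genes of strand exchange (1.67) and the clamp (1.75). Fancf, an adaptor subunit, had 1.05, 1.15, 0.74, 1.15 and 1.07 in wild-type and 0.71, 0.82, 0.35 and 0.57 in knockout. Knockout 2 was above wild-type 3, and no other pair of arrays crossed between the genotypes. The Fancf means passed against the pool in both genotypes (limma adjusted p = 0.000266 and 0.011), and the difference was -0.42 (SE 0.133). Fancc, its neighbour in the complex, had 0.63, 0.78, 0.65, 0.73 and 0.76 in wild-type and 0.50, 0.58, 0.56 and 0.40 in knockout. The genotypes did not overlap, and the spread in each was the narrowest among the genes that separated. The Fancc means of 0.71 ± 0.067 (SD, n = 5) and 0.51 ± 0.078 (SD, n = 4) passed against the pool (limma adjusted p = 0.000232 and 0.00511), and the difference was -0.20 (SE 0.0834), which became -0.03 after quantile and -0.06 after scale normalisation. Fancb, of the catalytic module, had 0.51, 0.66, 0.51, 1.08 and 0.89 in wild-type and 0.60, 0.72, 0.40 and 0.28 in knockout. Fancb overlapped between the genotypes and passed against the pool in both (limma adjusted p = 0.0017 and 0.0394). Fancg, which holds FANCA in the complex, had 0.75, 0.50, 0.69, 0.58 and 0.45 in wild-type and 0.29, 0.56, 0.73 and 0.04 in knockout. The Fancg arrays overlapped, and the gene passed in wild-type (limma adjusted p = 0.00394). Fance, which contacts FANCD2, had 0.33, 0.03, 0.60, 0.52 and 0.24 in wild-type and 0.32, 0.12, 0.57 and 0.21 in knockout. These values were alike in range, and the wild-type mean of 0.34 passed narrowly (limma adjusted p = 0.0352). The call on Fance was lost without wild-type 1, 3, 4 or 5 or knockout 1, where the mean was 0.35, 0.28, 0.30, 0.37 and 0.34. Fanca, the partner of FANCG in the complex, had 1.37, 1.69, 0.02, 1.32 and 0.97 in wild-type and 0.12, 0.94, 1.86 and -1.18 in knockout. Knockout 3 was the highest and knockout 4 the lowest of the 9 arrays, and the Fanca mean did not pass against the pool (wild-type 1.08 ± 0.64, SD, n = 5; limma adjusted p = 0.085). Its features disagreed widely on wild-type 3, 4 and 5 and knockout 4. Fancl, the catalytic subunit, had 0.22, -0.0020, 0.22, 0.16 and -0.22 in wild-type and 0.88, 0.24, 0.32 and -0.22 in knockout. Knockout 1 was the highest array for Fancl, which had the largest difference in favour of knockout, 0.23 (SE 0.214). That difference was 0.04 without knockout 1, 0.41 without knockout 4 and 0.39 after quantile normalisation. Fancm, the translocase that anchors the complex to DNA, had -0.32, -0.41, -0.29, -0.29 and -0.32 in wild-type and -0.22, -0.17, -0.39 and -0.07 in knockout. All 9 Fancm values were below the pool, and the wild-type mean of -0.33 ± 0.051 (SD, n = 5) was lower in the test (limma adjusted p = 0.00597). That call came from 1 of its 3 features, and with its RefSeq-annotated features alone the wild-type mean was 0.0033.

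Both genes of the FANCD2-FANCI clamp, the substrate of the core complex, were above the pool in wild-type. Fanci had 1.54, 1.41, 1.78, 1.67 and 1.81 in wild-type and 0.50, 1.27, 1.44 and 0.71 in knockout. Knockout 3 was just above wild-type 2, and otherwise the genotypes were apart. The Fanci means of 1.64 ± 0.17 (SD, n = 5) and 0.98 ± 0.45 (SD, n = 4) passed against the pool (limma adjusted p = 0.000249 and 0.0104), and the difference was -0.66 (SE 0.208). Fancd2 had 1.06, 1.17, 1.55, 3.75 and 1.75 in wild-type and 0.32, 0.96, 1.37 and 0.74 in knockout. Wild-type 4 stood far above the rest, and knockout 3 was above wild-type 1 and 2. The Fancd2 wild-type mean of 1.86 ± 1.09 (SD, n = 5) passed (limma adjusted p = 0.00683), and the difference of -1.01 (SE 0.540) was -0.54 without wild-type 4.

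The highest and the lowest wild-type mean of the 33 genes, those of Exo1 and Mus81, were both in the group of nucleases, helicases and neighbouring pathways. Exo1, the exonuclease of end resection and mismatch repair, had 3.61, 4.18, 3.60, 4.67 and 3.55 in wild-type and 1.41, 3.44, 3.38 and 2.35 in knockout. The genotypes did not overlap, with knockout 2 and 3 just under the lowest wild-type array. The Exo1 means of 3.92 ± 0.49 (SD, n = 5) and 2.64 ± 0.97 (SD, n = 4) passed against the pool (limma adjusted p = 0.000224 and 0.00582), and the difference was -1.28 (SE 0.453). Eme1, the regulatory partner of the junction nuclease MUS81, had 1.81, 2.28, 2.59, 3.01 and 2.67 in wild-type and 0.46, 1.05, 2.47 and 1.03 in knockout. Knockout 3 was above wild-type 1 and 2, and the other knockout arrays were below all wild-type arrays. The Eme1 means of 2.47 ± 0.45 (SD, n = 5) and 1.25 ± 0.85 (SD, n = 4) passed against the pool (limma adjusted p = 0.000539 and 0.0433), and the difference was -1.22 (SE 0.407). Mus81 itself had -0.04, -0.46, -0.24, -0.93 and -0.21 in wild-type and -0.23, -0.36, 0.0060 and -0.0065 in knockout. Its groups overlapped, it did not pass against the pool (wild-type limma adjusted p = 0.0607), and its knockout mean was the higher by 0.23 (SE 0.188). The Mus81 difference was 0.09 without wild-type 4 and 0.10 after either quantile or scale normalisation. Blm, the RecQ helicase that dissolves joined chromatids, had 0.95, 1.08, 1.33, 1.31 and 1.08 in wild-type and 0.48, 0.73, 1.26 and 0.35 in knockout. Of the knockout arrays only knockout 3 lay in the wild-type range, and Blm passed against the pool in both genotypes (limma adjusted p = 0.000558 and 0.0234). Slx4, the scaffold of structure-specific nucleases, had -0.27, -0.09, -0.14, 0.49 and 0.20 in wild-type and -0.14, 0.11, -0.14 and 0.12 in knockout. The Slx4 values lay on both sides of the pool and overlapped between genotypes. Rad18, the ubiquitin ligase that modifies PCNA at damaged forks, had 0.91, 0.83, 0.89, 2.13 and 1.90 in wild-type and 0.17, 0.73, 1.17 and 1.01 in knockout. Wild-type 4 and 5 were high, and knockout 3 and 4 were above wild-type 1, 2 and 3. Msh6, a mismatch recognition subunit, had 0.28, 0.61, 0.71, 1.25 and 0.68 in wild-type and -0.04, 0.25, 0.65 and -0.13 in knockout. Knockout 3 was above wild-type 1 and 2, and the other knockout arrays were below all wild-type arrays. The wild-type means of Rad18 and Msh6, 1.33 and 0.71, passed against the pool (limma adjusted p = 0.00414 and 0.00994).

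The 33 genes were read by 70 array features, of which 62 had the lower mean in knockout, and 19 genes had more than 1 feature. Features of the same gene often had the same direction and very different levels. For 5 genes, Fanca, Fancd2, Fanci, Fancm and Fignl1, the wild-type means of the features spanned more than 1 on the log2 scale. For Fignl1 the features with a RefSeq accession, 13638 and 30305, had wild-type means of 3.08 and 2.95 and differences of -1.21 and -1.23. Their genotypes overlapped, since knockout 3 had 2.80 and 2.67 against 2.51 and 2.39 on wild-type 1. The third Fignl1 feature, 10161, had a wild-type mean of -0.49 and stood at -3.13 on knockout 3, and only the average with it separated the genotypes. For Fanci, feature 28903 had a wild-type mean of 2.87 and a difference of -1.19, and feature 41100 had 0.42 and -0.13. For Fanca, feature 37851 read 2.32 on wild-type 3 and 0.63 on knockout 4, where feature 39514 read -2.27 and -2.99. On wild-type 4 and 5 the first read 2.64 and 1.95 and feature 39514 exactly 0. In both genes the average lies between features that differ widely. Feature 37851 alone was above the pool in wild-type (mean 2.22, limma adjusted p = 0.000645). For Fancm, feature 22400 had a wild-type mean of -0.98, and the features 14144 and 28818 had -0.02 and 0.03. For Rad54l, feature 44903 read 5.52 on wild-type 3 and 4.03 on knockout 3 and exactly 0 on wild-type 4, wild-type 5 and knockout 4, while feature 19637 lay between 0.79 and 2.23 on all arrays with a difference of -0.73. The high Rad54l averages on the arrays numbered 3 came from feature 44903 alone. For Fancd2, feature 43170 read 5.21 on wild-type 4 and exactly 0 on wild-type 5 and knockout 4, while the other features, 8541 and 33707, had differences of -1.22 and -0.88. At the level of single features, 1 feature each of Chek1, Exo1 and Fancc kept the genotypes apart, all with knockout lower, which is 3 of 70 where 0.909% of all 45220 features separated this way. When only features with a RefSeq accession were averaged, a setting chosen after seeing the data, 31 of the 33 genes had the lower mean in knockout, the median difference was -0.54, and Rad54b, Fancc and Exo1 did not overlap between the genotypes, against 0.956% of all values in that setting.

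**Figure D3:**
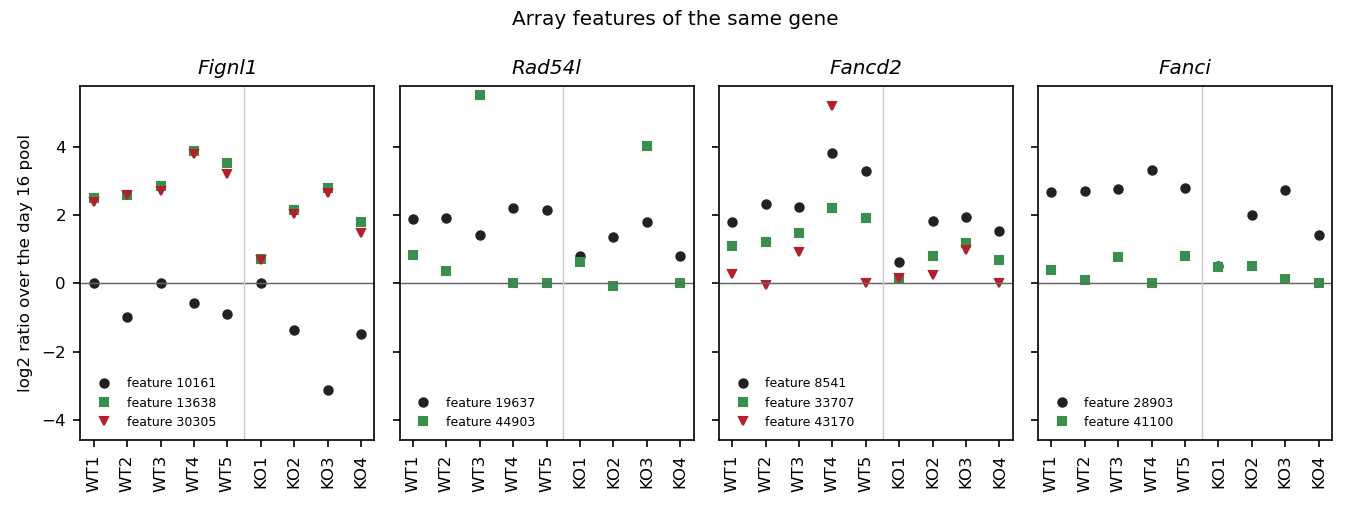
Log2 ratio over the day 16 pool (vertical axis) of each array feature of Fignl1, Rad54l, Fancd2 and Fanci on the 5 wild-type (WT) and 4 knockout (KO) arrays (horizontal axis), with 1 symbol per feature. Feature 44903 of Rad54l reads 5.52 on wild-type 3 and 4.03 on knockout 3 and below 1 elsewhere, and feature 10161 of Fignl1 lies at -3.13 on knockout 3.

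Other repair pathways were measured on the same arrays, with lists drawn up for this comparison. Of 39 other genes of homologous recombination and the Fanconi pathway, 14 were higher than the pool in wild-type in limma, where 12.9% of all values were higher and 12.1% lower, with a median log2 ratio of 0.28, and 30 had the lower mean in knockout, with a median difference of -0.16. The highest of them in wild-type were Parpbp, which restrains recombination (2.53 ± 0.64, SD, n = 5, and 1.28 ± 0.80, SD, n = 4, in knockout), and Mms22l, a partner of TONSL at stalled forks (2.31 ± 0.66, SD, n = 5, and 1.22 ± 0.71, SD, n = 4). Slx1b, the nuclease subunit that SLX4 holds, was the single gene of the repair lists called between the genotypes, with a difference of -2.39 (limma adjusted p = 0.00056). That call was lost in the fit blocked by replicate number (limma adjusted p = 0.124) and held when each array was left out. Only 1 of its 2 features differed. Feature 33662, without a RefSeq mRNA accession, had a difference of -4.71, and feature 32503, with one, had -0.0691. Slx1b lies 66 measured genes from Pycard on chromosome 7. Of the 33 repair genes, Palb2, Blm, Fanci and Fancf lie on chromosome 7 too, 103, 591, 620 and 708 measured genes from Pycard. The 13 genes of ATR signalling and replication protein A were nearest to the homologous recombination genes, with 8 higher than the pool, a median wild-type log2 ratio of 0.91 and 12 with the lower mean in knockout (median difference -0.26). Clspn, the adaptor that lets ATR activate CHEK1, and Timeless, of the fork protection complex, had the highest wild-type means in that list, 2.43 ± 0.36 and 1.54 ± 0.30 (SD, n = 5).

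The other repair pathways had medians closer to the pool, and their counts stand beside the same 12.9% higher and 12.1% lower of all values. Of 11 genes of non-homologous end joining 3 were higher in wild-type, with a median log2 ratio of 0.03, and the median difference between genotypes was -0.08. The 13 genes of nucleotide excision repair had a median of 0.10, with 3 higher and 1 lower, and a median difference of -0.02. The 4 measured genes of mismatch repair had a median of -0.10, with 1 higher, and a median difference of -0.22. The 16 genes of base excision repair had a median of 0.21, with 5 higher and 1 lower, and a median difference of -0.15. In that last list Neil3, a glycosylase known from dividing cells, and Ung, the uracil glycosylase, stood out with wild-type means of 3.51 ± 0.42 and 1.70 ± 0.52 (SD, n = 5) and knockout means of 2.50 ± 1.19 and 0.89 ± 0.54 (SD, n = 4). Tdg, a thymine glycosylase (0.83 and 0.50), and Cetn2, a centrin of damage recognition (0.23 and 0.07), did not overlap between the genotypes, with knockout lower and neither called. Of the remaining genes that the rule for names took, Xrcc5 and Mad2l2 of end joining had wild-type means of 0.69 and 0.89, Mlh3 and Pms2 of mismatch repair -0.46 and 0.26, and Ercc2 and Ddb1 of nucleotide excision repair -0.50 and -0.45.

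**Figure D4:**
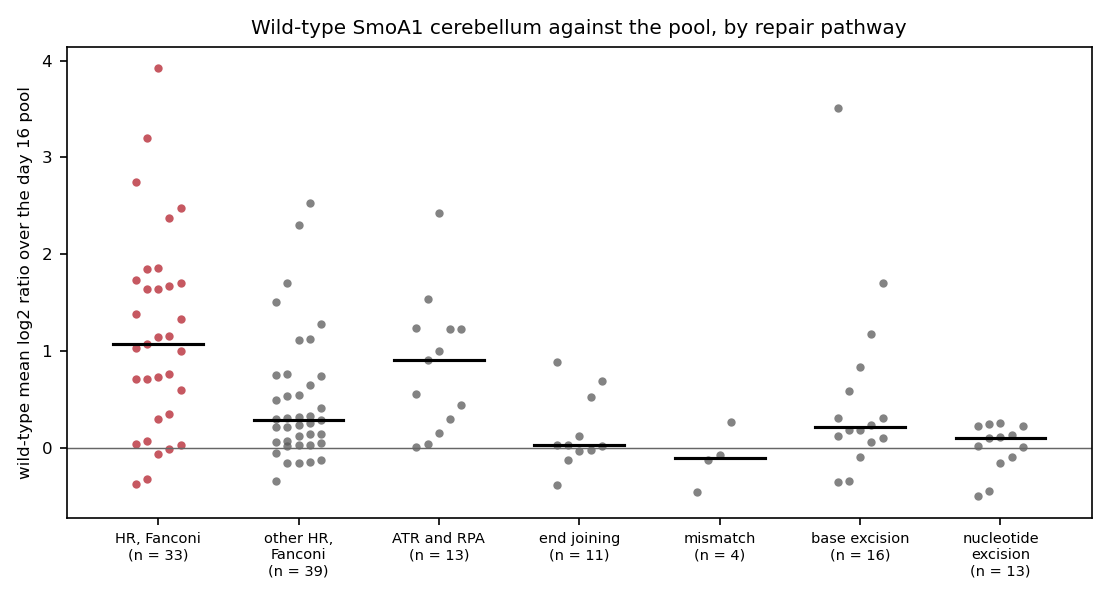
Wild-type mean log2 ratio over the day 16 pool (vertical axis) of each measured gene in the repair lists (horizontal axis); each point is 1 gene and the line is the median of the list. The median is 1.08 for the 33 homologous recombination and Fanconi genes and 0.91 for ATR signalling and replication protein A, and between -0.10 and 0.28 for the other lists.

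Cell cycle genes had their lowest means on the same arrays as the repair genes. The mean of 19 genes of G2/M and mitosis was 2.78, 3.06, 2.81, 3.73 and 3.31 on the wild-type arrays and 0.90, 2.36, 2.63 and 1.80 on the knockout arrays. Knockout 1, then knockout 4, were lowest and wild-type 4 highest, as in the mean of the repair genes. All 19 of these genes, all 20 of G1/S and DNA replication and all 12 markers of granule neuron progenitors had the lower mean in knockout, and none of them was called in limma. Their means per array ranged over 1.47 to 2.40 in wild-type and 0.37 to 1.81 in knockout for G1/S, and over 1.72 to 2.42 and 0.34 to 1.82 for the progenitors. Unadjusted limma p was under 0.05 for 19 of 19 G2/M genes, 15 of 20 G1/S genes and 8 of 12 progenitor markers. The genotypes did not overlap for 8, 1 and 1 of them. For the 33 repair genes these counts were 15 and 4, and the shares of all values with knockout lower were 3.31% and 0.946%. Markers of more mature or other cells mostly had the higher mean in knockout. Oligodendrocyte markers, 9 of 11 higher, ranged over -1.34 to -0.85 in wild-type and -0.71 to -0.53 in knockout. Purkinje cell markers, 8 of 8 higher, ranged over -1.07 to -0.76 and -1.09 to -0.14, and those of mature granule neurons, 12 of 12 higher, over -0.71 to -0.20 and -0.38 to -0.08. Astrocyte markers, 7 of 10 higher, ranged over -0.91 to -0.45 in wild-type and -0.54 to -0.29 in knockout, and endothelial markers, 8 of 8 higher, over -0.39 to -0.24 and -0.21 to -0.11. Microglial markers, with 9 of 9 lower in knockout, ranged over 0.67 to 1.24 in wild-type and -0.22 to 1.03 in knockout. Lists above the pool in wild-type thus had mostly lower means in knockout, and lists below it mostly higher ones. The feature SD was 0.552 to 0.882 on the knockout arrays and 0.649 to 1.12 on the wild-type arrays. The marker lists are given without normalisation between arrays, and the part of array spread in them was not tested. The ratios do not tell whether a defining marker was at background, and the part of these markers in the values of the repair genes was not tested.

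**Figure D5:**
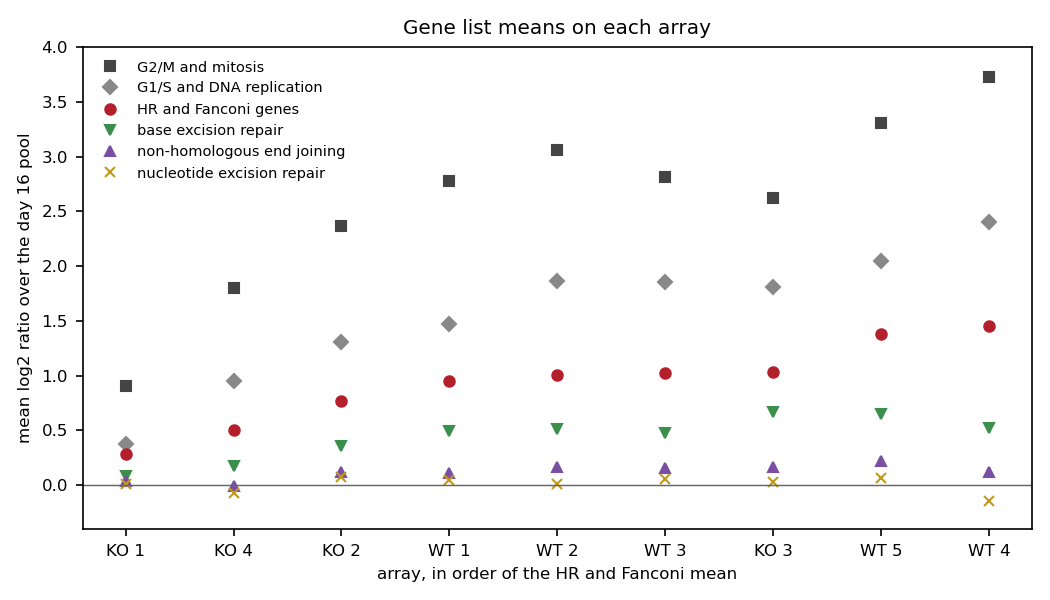
Mean log2 ratio over the day 16 pool (vertical axis) of the 33 homologous recombination (HR) and Fanconi genes, of 2 cell cycle lists and of 3 other repair lists on each array (horizontal axis, WT wild-type and KO knockout, in the order of the HR and Fanconi mean). From knockout 1 to wild-type 4 the G2/M mean goes from 0.90 to 3.73 and the HR and Fanconi mean from 0.28 to 1.45. The base excision repair mean goes from 0.08 to 0.52 between these arrays and is highest, at 0.66, on knockout 3. End joining and nucleotide excision repair stay between -0.14 and 0.22.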

How the data were processed

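Gene expression in 9 cerebellar samples was measured on 2-colour Agilent arrays. The deposited values are the authors' processed log2 ratios, 1 for each feature on each array. The submitters' processing notes name Agilent Feature Extraction. Its version, background correction, dye normalisation and filtering were not given in the sources used here, nor was the log base. The base of 2 is an inference from the values, because every array has 20 to 280 of them beyond 4.82, the limit for a log10 ratio of 16-bit signals. The direction, sample over pool, comes from the dyes per the labels. Without intensities, dim, saturated and control spots could not be set apart, and the number of arrays limits the precision.

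Of 45220 features, 33653 carry 1 symbol in the platform annotation, 56 several and 11511 none. Features of 1 symbol were averaged and all others kept alone, giving 30654 values, 19087 of them for named genes. Symbols were compared with RefSeq by gene identifier, and 0 changed. All values were fitted by genotype with limma 3.58.1 (lmFit and eBayes, R 4.3.3), two-sided and with no covariate, and adjusted by Benjamini-Hochberg over the whole table at a threshold of 0.05. Wild-type and knockout means were tested against the pool in that fit. On simulated data for knockout against wild-type (30654 values), 50 values each were changed by 1, 2, 3 and 4 on the log2 scale. Of these 44%, 68%, 82% and 80% were called, with 5 false calls. The 200 changed values ease the Benjamini-Hochberg adjustment, and only 5 values were called in the real comparison. These shares can therefore overstate what the fit recovers there.

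The members, the other lists and the settings were chosen with earlier results of these data known. Values on every array are given for members past a threshold in any comparison, for members whose genotypes do not overlap, and for the 2 smallest p and 2 largest differences in each role group. Genes of the other repair lists are named where they were called, did not overlap or had the 2 largest wild-type means in size.

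The labels use the replicate numbers 1 to 4 in both genotypes without saying what a number marks. Same-numbered arrays deviated from their group means with correlations of 0.244, 0.247, 0.446 and 0.304, all over 0.1, so the numbers were taken as a possible pairing, although knockout 2 was closer to wild-type 1 (0.261). Alternatives were the replicate number or the title style as a block, each title style alone, each array left out, quantile and scale normalisation, single features, leaving out the 25% of values with the lowest SD, exact zeros as missing, array weights, a trended robust prior, adjusted p under 0.1 and, added after seeing the data, RefSeq-annotated features alone.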

Additional observations from a re-analysis of the deposited data

Results flagged for a closer look

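The 33 genes in 2 genotypes gave 66 groups, and in 5 of them 1 array lay far from the others, measured by its gap to the nearest value as a share of the whole range. Chance alone flags about 5% of groups, or 3.3 of the 66. Rad54l was apart on wild-type 3 (log2 ratio 3.47) and on knockout 3 (2.92), and on both arrays the high value came from feature 44903 alone, at 5.52 and 4.03. Fancd2 was apart on wild-type 4 (3.75), where feature 43170 read 5.21. Fancf was apart on wild-type 3 (0.737), below the other wild-type arrays. Fancm was apart on wild-type 2 (-0.412), below the other wild-type arrays in a group whose values span a narrow range.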

How the results depend on the processing

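No repair gene was called between the genotypes under any setting run, and the median difference over them was negative under all. The number of values called between genotypes, 5, became 0 with the replicate block and 0 in either title style alone, 3 after quantile or scale normalisation, and 1 to 6 when each array was left out. The blocked fit has fewer residual degrees of freedom, and 1868 values had an unadjusted limma p under 0.05 in it against 1656 without the block. With the replicate block 0 repair genes were called, as without it, so there was no call that the block could have removed. It left 10 repair genes with an unadjusted limma p under 0.05, against 15 without it. The median difference of -0.52 was -0.46 with the title style as a block. It was -0.25 in letter-titled arrays alone and -0.98 in number-titled arrays alone, and the cause was not tested. Against the pool, the number of values called in wild-type, 7650, was 0 in number-titled arrays alone, which leave 3 arrays, 12094 with single features, where more values are tested, and 4268 with the filter on SD, which also leaves out 7 of the repair genes. The number of repair genes called in wild-type, 25, was 0 in number-titled arrays alone and 20 to 28 under the other settings. With single features, which gave 28, a gene counted as called if any 1 of its features passed. The number called in knockout, 13, was 0 in number-titled arrays alone, 22 with array weights, 8 with the filter on SD, 5 with a trended robust prior, and 2 to 14 when each array was left out; the cause was not tested for the weights and the prior. Some single-gene values changed sign, and none of these was called in the reversed form. The difference between genotypes reversed with replicate block for Bard1 (0.095) and Xrcc3 (0.023), with title style block for Slx4 (0.0052). It did so with letter-titled arrays alone for Atr (0.16), Bard1 (0.027), Xrcc3 (0.071), Fancb (0.013), Fance (0.017) and Slx4 (0.11), with number-titled arrays alone for Atrip (0.35) and Fancl (-0.19). It did so with quantile normalisation for Xrcc3 (0.024) and Fance (0.044), with scale normalisation for Xrcc3 (0.026) and Fance (0.041). It did so with single features for Fancm (-0.013), with array weights for Atr (0.052), Xrcc3 (0.0054), Fance (0.028) and Slx4 (0.11). It did so with RefSeq-annotated features only for Fancm (-0.077). The wild-type mean reversed with letter-titled arrays alone for Atr (-0.11), Atrip (0.13) and Slx4 (-0.16), with number-titled arrays alone for Atm (0.44) and Fancl (-0.030). It did so with quantile normalisation for Atr (-0.011), Atrip (0.0028) and Slx4 (-0.0056), with scale normalisation for Atr (-0.023), Atrip (0.00083) and Slx4 (-0.021). It did so with array weights for Atr (-0.017), Atrip (0.055) and Slx4 (-0.091), with RefSeq-annotated features only for Fancm (0.0033). With each array left out the difference ranged over -0.085 to 0.042 for Atrip, -0.14 to 0.091 for Xrcc3, -0.13 to 0.026 for Fance, -0.13 to 0.061 for Slx4, -1.14 to 0.095 for Bard1 and -0.25 to 0.020 for Atr. With each array left out the wild-type mean ranged over -0.23 to 0.092 for Atm, -0.067 to 0.11 for Atr, -0.059 to 0.054 for Atrip and -0.073 to 0.12 for Slx4. Outside these left-out arrays, the single-gene differences kept their sign in 401 of 422 cases, and the wild-type means kept sign and call in 299 of 356, lost the call in 32, gained it in 10 and reversed in 15.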
